A study of Danio rerio with 16 samples.

Results

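The melanin pigment genes of zebrafish were read out in embryo samples labelled body: mitfa, tyr, tyrp1a, tyrp1b, dct, pmela, pmelb, oca2, slc45a2 and slc24a5. The 10 genes were taken by symbol from the deposited table of 36109 genes. All 10 were found there, and all 10 passed the filter on low counts that kept 24300 genes for testing. Bulk RNA sequencing covered 16 libraries in 4 groups of 4. The siblings, labelled WT and untreated, were sampled at 24 and 48 hours post fertilisation (hpf) and are called sib24 and sib48. The mutants, labelled as a CRISPR/Cas9 knockout of both lipf and pla2g15, were sampled at the same ages and are called mut24 and mut48. The sources used here give neither the lesions nor the number of embryos per library, nor whether siblings included heterozygotes. They do not state whether replicates were separate clutches either, and p-values therefore reflect the spread between libraries, which may be technical.

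Melanin is made in melanosomes, organelles related to lysosomes, by an enzyme series that starts from tyrosine. In zebrafish embryos, melanin is made by melanophores, which arise from the neural crest, and by the retinal pigment epithelium of the eye. Tyrosinase (tyr) carries out the first and rate-limiting step, and dopachrome tautomerase (dct) and the tyrosinase-related proteins (tyrp1a, tyrp1b) act further on. The pmela and pmelb products form the fibrils on which melanin is laid down. The transporters encoded by oca2, slc45a2 and slc24a5 set the ion content and acidity of the melanosome, and in zebrafish loss of slc24a5 gives golden and loss of slc45a2 gives albino fish. The transcription factor encoded by mitfa directs melanophore fate, and nacre fish that lack it have no melanophores but keep a pigmented retinal epithelium.

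Library totals ran from 35.9 to 50.5 in units of 1e6 counts, and single melanin genes held 140 to 10521 counts in a library. Levels are counts per 1e6 counts of a library (CPM) scaled by the TMM method and cannot be compared between genes, which differ in length. The targeted gene lipf stood at 8.84 to 25.2 CPM in sib24 against 0.577 to 2.34 in mut24, and at 17.0 to 31.6 in sib48 against 2.03 to 3.03 in mut48. The pla2g15 transcript overlapped between genotypes at both ages, at 8.01 to 23.7 CPM in sib24, 4.88 to 20.2 in mut24, 39.8 to 62.9 in sib48 and 28.0 to 46.2 in mut48. Neither lipf nor pla2g15 shares a chromosome with any of the 10 melanin genes (RefSeq assembly GRCz12tu, used only to look up chromosomes). Of 17 genes used as markers of the retinal pigment epithelium, some of which are also expressed elsewhere, 0 were at 0 counts in a whole group. The tissue is labelled body, and whether these counts came from the eye was not tested.

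From 24 to 48 hpf, the later enzymes, both fibril genes, oca2 and slc24a5 rose in siblings, mitfa fell, and tyr and slc45a2 did not pass the test. Of the 10 genes, 7 were called higher and 1 lower, at a Benjamini-Hochberg adjusted p under 0.05 in edgeR's quasi-likelihood test over all genes. Most of the transcriptome differed between these ages: 63.3% of tested genes were called, 34.1% as higher and 29.2% as lower, and 66.3% had an unadjusted p under 0.05 against 8 of the 10 melanin genes. The groups did not overlap for 6 melanin genes that were higher and 1 that was lower, and for 32.0% and 27.2% of all tested genes. The median log2 fold change of the melanin genes was 1.07, against 0.06 over all tested genes. In bulk RNA, fewer cells of a type and less RNA per cell cannot be told apart.

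The enzyme genes did not move as a block. The tyr transcript was measured at 35.3, 40.6, 40.6 and 35.5 CPM in sib24 and at 37.0, 31.5, 32.8 and 38.7 CPM in sib48. These ranges overlapped, with a log2 fold change of -0.12 (SE 0.0839, edgeR adjusted p = 0.233). For tyrp1b the values were 50.0, 45.3, 55.3 and 45.5 CPM in sib24 and 195, 171, 198 and 249 CPM in sib48. Every 48 hpf library thus lay far above every 24 hpf library, a 4.14-fold rise (log2 2.05, SE 0.129, edgeR adjusted p = 2.28e-10) and the largest fold among the 10 genes in siblings. The paralog tyrp1a rose less, 1.96-fold from 18.2 ± 0.395 to 35.6 ± 2.17 CPM (SD, n = 4, edgeR adjusted p = 1.10e-08). For dct the rise was 2.40-fold, from 19.6 ± 2.10 to 47.1 ± 3.25 CPM (edgeR adjusted p = 4.42e-08).

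Both fibril genes rose. The pmela transcript went from 71.2, 67.6, 64.7 and 62.6 CPM in sib24 to 141, 143, 143 and 169 CPM in sib48, a 2.24-fold rise (edgeR adjusted p = 6.19e-09). For pmelb, which in zebrafish is reported mainly from the retinal pigment epithelium, the values were 17.3, 16.1, 13.7 and 13.9 CPM in sib24 and 48.0, 40.1, 45.7 and 52.7 CPM in sib48. This was a 3.05-fold rise (edgeR adjusted p = 6.21e-10), again with no overlap between ages.

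The transporters differed from each other. In siblings oca2 rose 2.44-fold from 6.17 ± 0.872 to 15.1 ± 1.31 CPM (SD, n = 4, edgeR adjusted p = 1.67e-07). The slc24a5 transcript, a potassium-dependent sodium and calcium exchanger gene, rose 1.28-fold between means of 12.1 ± 1.81 and 15.5 ± 1.98 CPM (edgeR adjusted p = 0.0218), and its libraries overlapped between ages. This call was lost without sib24 replicate 1 (adjusted p = 0.0700), sib24 replicate 2 (0.0652) or sib48 replicate 4 (0.0841). The slc45a2 transcript stood at 29.6 ± 1.77 CPM in sib24 and 27.3 ± 2.55 in sib48 (edgeR adjusted p = 0.363).

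The regulator mitfa went the opposite way from most of the pigment genes. It was measured at 16.1, 15.1, 13.5 and 15.7 CPM in sib24 and at 7.68, 7.62, 10.9 and 7.88 CPM in sib48. It fell 1.77-fold with no overlap (log2 -0.82, SE 0.151, edgeR adjusted p = 0.000126), and sib48 replicate 3 was the highest library of its group.

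**Figure D1:**
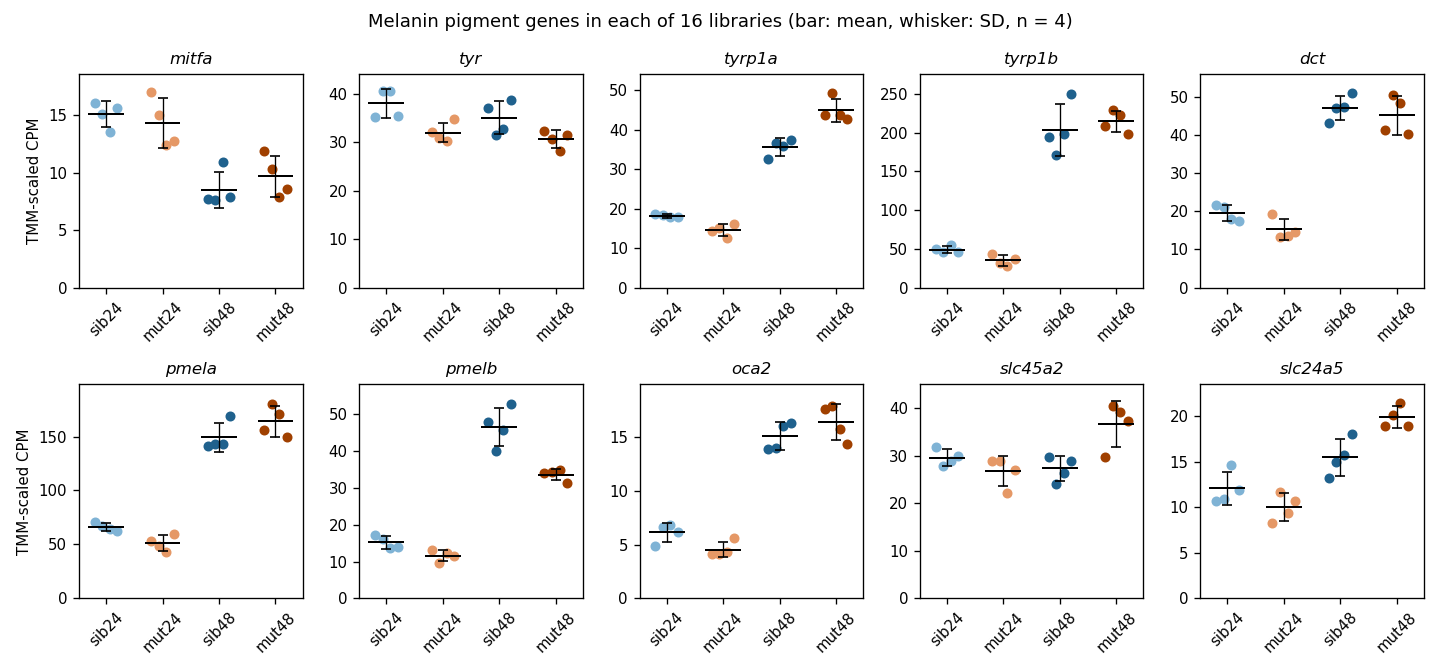
Level of each melanin gene in TMM-scaled CPM (vertical axes, each from 0) in the 4 libraries of sib24, mut24, sib48 and mut48. Points are libraries, bars are means and whiskers are SD (n = 4). The tyrp1b libraries lie at 28.2 to 55.3 CPM at 24 hpf and at 171 to 249 CPM at 48 hpf, while those of tyr lie between 28.1 and 40.6 CPM at both ages.

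In mutants the same comparison of ages called 8 of the 10 genes higher and 1 lower, where 64.4% of all tested genes were called, 34.1% as higher and 30.4% as lower. An unadjusted p under 0.05 was found for 9 of the 10 and for 67.4% of all tested genes. The ages did not overlap for 8 genes that were higher and 1 that was lower, against 30.9% and 27.9% of all tested genes. The additional gene was slc45a2, which rose 1.37-fold from 26.7 ± 3.15 to 36.6 ± 4.84 CPM (SD, n = 4, edgeR adjusted p = 0.00121). The mitfa transcript fell 1.48-fold (edgeR adjusted p = 0.00317), and tyr was not called (log2 -0.06, SE 0.0841, edgeR adjusted p = 0.536). The median log2 fold change over the 10 genes was 1.55, against 0.05 over all tested genes.

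The rise with age was nominally steeper in mutants for most of these genes, and the difference passed the test for tyrp1a. That transcript rose 3.08-fold in mutants (edgeR adjusted p = 1.51e-11) against 1.96-fold in siblings, an interaction of 0.65 on the log2 scale (SE 0.116, edgeR adjusted p = 0.0135). Of the 10 genes 1 was called in this interaction, where 1.00% of all tested genes were called, 0.486% as higher and 0.519% as lower. An unadjusted p under 0.05 was found for 6 of the 10 and for 3884 of the 24300 tested genes. The interaction was above 0 for 9 of 10 genes and for 11237 of the 24300 tested genes, with medians of 0.53 and -0.03. The exception among the 10 was pmelb at -0.07 (SE 0.152, edgeR adjusted p = 0.869). Next in size were slc24a5 at 0.63 (SE 0.182, edgeR adjusted p = 0.0924), slc45a2 at 0.57 (SE 0.151, edgeR adjusted p = 0.0726) and tyrp1b at 0.57 (SE 0.176, edgeR adjusted p = 0.117). They were followed by oca2 at 0.56 (SE 0.188, edgeR adjusted p = 0.148) and pmela at 0.51 (SE 0.132, edgeR adjusted p = 0.0652). None of these 5 passed. DESeq2, which called 3.79% of the genes it tested in this interaction, called 5 of the 10: tyrp1a, tyrp1b, pmela, slc45a2 and slc24a5. The 2 genotypes share no library in these comparisons, while the interaction uses all 16.

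**Figure D2:**
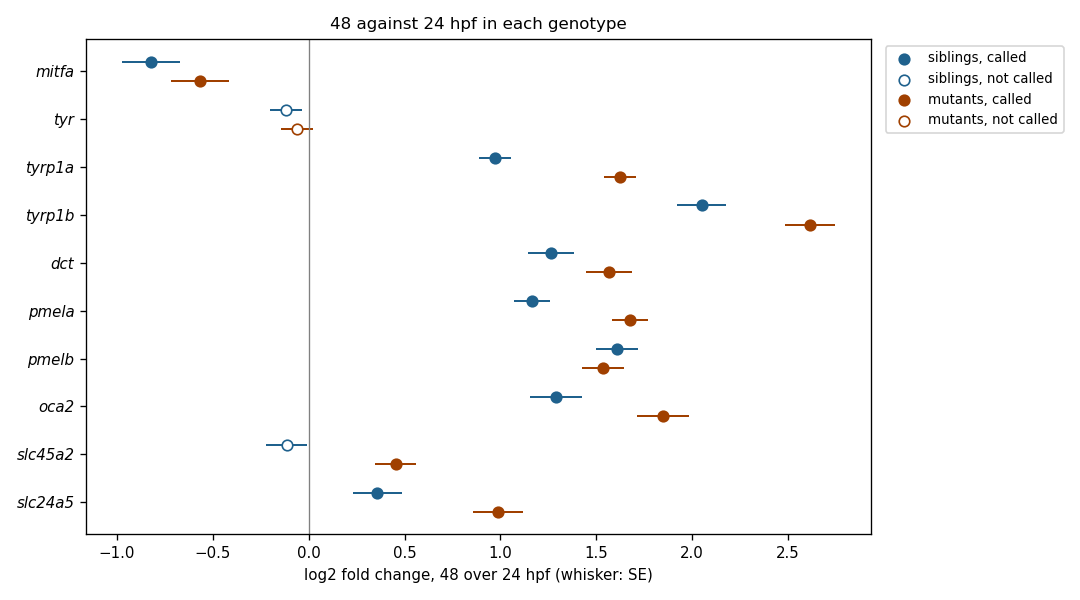
Log2 fold change of each melanin gene from 24 to 48 hpf (horizontal axis) in siblings and in mutants, with whiskers of 1 SE. Filled points were called. In siblings mitfa lies at -0.82 and tyrp1b at 2.05, and in mutants at -0.57 and 2.62.

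At 24 hpf every melanin gene had a lower mean in mutants than in siblings, by 1.05-fold for mitfa to 1.40-fold for tyrp1b, but edgeR called 0 of the 10. At this age 0.831% of all tested genes were called, 0.391% as higher and 0.440% as lower. Of the 10 genes 7 had an unadjusted p under 0.05, against 13.7% of all tested genes, and DESeq2, which called 3.97% of the genes it tested, called 6 of the 10, all lower. The log2 fold change was below 0 for 10 of 10 melanin genes and for 50.7% of all tested genes, with medians of -0.34 and -0.0033. In 5 of the 10 (tyr, tyrp1a, tyrp1b, pmela and pmelb) every mutant library lay below every sibling library, which held for 4.35% of all tested genes. The opposite order held for 0 of the 10 and for 4.17% of all tested genes.

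The gene nearest to the threshold was pmela. It stood at 53.0, 49.0, 43.4 and 60.0 CPM in mut24, all under the lowest sib24 library at 62.6 CPM. Its log2 fold change was -0.37 (SE 0.0936, edgeR adjusted p = 0.0699, DESeq2 adjusted p = 0.00812).

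Among the enzyme genes, tyrp1b was measured at 43.2, 31.2, 28.2 and 37.4 CPM in mut24, all below the lowest sib24 value of 45.3 CPM. Its log2 fold change of -0.49 was the lowest of the 10 (SE 0.126, edgeR adjusted p = 0.0775, DESeq2 adjusted p = 0.00640). For tyrp1a the sib24 libraries were tightly grouped at 18.6, 18.4, 17.8 and 17.8 CPM, and those of mut24 were 14.4, 15.0, 12.6 and 16.2 CPM. The groups did not overlap (log2 -0.32, SE 0.0826, edgeR adjusted p = 0.0782, DESeq2 adjusted p = 0.0153). The rate-limiting gene tyr stood at 32.1, 30.9, 30.1 and 34.7 CPM in mut24 (log2 -0.25, SE 0.0841, edgeR adjusted p = 0.177), and DESeq2 did not call it either. For dct mut24 replicate 1, at 19.4 CPM, lay inside the sibling range and the other mutant libraries at 13.3 to 14.7 CPM lay below it (log2 -0.36, SE 0.119, edgeR adjusted p = 0.162, DESeq2 adjusted p = 0.0484).

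The pmelb transcript stood at 13.1, 9.55, 12.3 and 11.4 CPM in mut24, below all sib24 libraries (log2 -0.40, SE 0.109, edgeR adjusted p = 0.0926, DESeq2 adjusted p = 0.0167). Of the transporter genes oca2 was at 4.10, 4.14, 4.34 and 5.64 CPM in mut24 against 4.93, 6.69, 6.85 and 6.23 in sib24, with overlap (log2 -0.44, SE 0.136, edgeR adjusted p = 0.140, DESeq2 adjusted p = 0.0474). The groups overlapped for the remaining 3 genes: slc24a5 had a log2 fold change of -0.27 (edgeR adjusted p = 0.372), slc45a2 of -0.15 (edgeR adjusted p = 0.60) and mitfa of -0.08 (edgeR adjusted p = 0.883). DESeq2 called none of these 3.

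The 24 hpf libraries differed in their content of yolk genes. A yolk score, the mean log2 CPM of 16 tested genes of the yolk syncytial layer, spanned 2.59 to 6.62 in sib24 and 1.90 to 6.75 in mut24, with a difference in means of -0.54 (exact two-sided permutation p = 0.714, adjusted p = 0.714 over 2 tests). Of these 16 genes 0 were called in edgeR at 24 hpf, beside 0.831% of all tested genes. An unadjusted p under 0.05 was found for 1 of the 16 and for 13.7% of all tested genes. The mean log2 CPM of the melanin genes was 4.45, 4.45, 4.46 and 4.38 in sib24 replicates 1 to 4, whose yolk scores were 4.14, 5.57, 6.62 and 2.59. In mut24 it was 4.21, 4.08, 3.97 and 4.20, with yolk scores of 6.75, 2.14, 5.99 and 1.90. These means did not overlap between genotypes. The part of the yolk content in the melanin gene values was not tested beyond the fits that follow. With the yolk score as a covariate edgeR called tyrp1a and pmela lower (both at adjusted p = 0.0361), and 2.53% of all tested genes. Without sib24 replicates 1 and 4 and mut24 replicates 2 and 4, the libraries lowest in yolk genes, 0 of the 10 were called. At this age that fit kept only sib24 replicates 2 and 3 and mut24 replicates 1 and 3. Of 25082 genes tested in it, 6 were called higher and 17 lower. The log2 fold change stayed below 0 for 9 of the 10, and mitfa changed sign to 0.03 (edgeR adjusted p = 0.982).

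A developmental position, from 0 at the mean of sib24 to 1 at the mean of sib48, was found for each library from all tested genes but the melanin genes. A sibling library was left out of the means it was scored against, so that its group need not average 0 or 1, while mutant libraries were scored against the means of all siblings. The position was 0.0398 ± 0.0585 in sib24 and 0.00949 ± 0.0220 in mut24 (SD, n = 4), a difference of -0.0303 (exact two-sided permutation p = 0.429, adjusted p = 0.429 over 2 tests). At 48 hpf it was 0.970 ± 0.0240 in sib48 and 0.941 ± 0.0386 in mut48, a difference of -0.0294 (exact two-sided permutation p = 0.257, adjusted p = 0.429). The smallest p of this test is 0.0286. Siblings and mutants were scored in unlike ways, so these p-values are approximate and part of each difference may come from the scoring. The part of developmental position in the melanin gene values was not tested.

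At 48 hpf the melanin genes no longer lay on 1 side. Mutants had higher tyrp1a and slc45a2 and lower pmelb, so 2 of the 10 were called higher and 1 lower, where 7.43% of all tested genes were called, 2.84% as higher and 4.59% as lower. That split over all genes depended on the scaling: upper-quartile scaling gave 819 higher and 746 lower, against 691 and 1115. The calls of tyrp1a, slc45a2 and pmelb were made under each scaling. Of the 10 genes 7 had a log2 fold change above 0, with a median of 0.13, against -0.04 over all tested genes. An unadjusted p under 0.05 was found for 5 of the 10 and for 22.1% of all tested genes. The groups did not overlap for 2 genes that were higher (tyrp1a and slc24a5) and 1 that was lower (pmelb), against 5.70% and 8.46% of all tested genes. Siblings had a yolk score of 6.53 ± 0.254 and mutants of 6.07 ± 0.116 (SD, n = 4, exact two-sided permutation p = 0.0286, the smallest possible, adjusted p = 0.0571), with 0 of 16 yolk genes called higher and 1 lower. The log2 fold changes of these 16 genes ran from -6.42 to 1.29 with a median of -0.31, 5 above 0 and 11 below. A single gene may thus weigh heavily on the score, and its part in the difference was not tested. With the yolk score as a covariate tyrp1a, slc45a2 and pmelb were called, and 8.93% of all tested genes.

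The tyrp1a transcript was measured at 43.8, 49.3, 43.8 and 42.8 CPM in mut48 and at 32.6, 36.7, 35.8 and 37.5 CPM in sib48. Every mutant library lay above every sibling library, a 1.26-fold rise (log2 0.33, SE 0.0808, edgeR adjusted p = 0.0191), and the call was lost without mut48 replicate 2, the highest library (adjusted p = 0.0676). This is the reverse of its order at 24 hpf, and the interaction given above tests that difference. Its paralog tyrp1b stood at 208, 229, 223 and 199 CPM in mut48, within the sib48 range (log2 0.08, SE 0.124, edgeR adjusted p = 0.779).

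The slc45a2 transcript was at 29.6, 40.4, 39.1 and 37.4 CPM in mut48 and at 29.7, 24.1, 26.4 and 29.0 CPM in sib48. In mut48 replicates 2, 3 and 4 lay above all siblings and replicate 1 lay inside their range. It rose 1.34-fold (log2 0.42, SE 0.107, edgeR adjusted p = 0.0238). The call was lost in 4 of 16 fits that left out a library, those without sib48 replicate 2 (adjusted p = 0.0847), sib48 replicate 3 (0.0626), mut48 replicate 2 (0.0759) or mut48 replicate 3 (0.0609). The transporter gene slc24a5 did not overlap between genotypes either, at 18.9, 20.1, 21.5 and 18.9 CPM in mut48 against 13.2, 15.0, 15.7 and 18.0 CPM in sib48, but was not called (log2 0.36, SE 0.127, edgeR adjusted p = 0.0960). For oca2 the groups overlapped (log2 0.12, SE 0.130, edgeR adjusted p = 0.654).

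The pmelb transcript was lower in mutants, at 34.1, 34.5, 34.8 and 31.3 CPM in mut48 against 48.0, 40.1, 45.7 and 52.7 CPM in sib48. The groups did not overlap, and the fall was 1.38-fold (log2 -0.47, SE 0.106, edgeR adjusted p = 0.0134), with the call lost without sib48 replicate 4, the highest sibling library (adjusted p = 0.0532). The other fibril gene, pmela, was at 156, 180, 171 and 149 CPM in mut48 and overlapped the siblings (log2 0.14, SE 0.0927, edgeR adjusted p = 0.426). Of the remaining genes, tyr had a log2 fold change of -0.19 (SE 0.0840, edgeR adjusted p = 0.183), dct of -0.06 (SE 0.116, edgeR adjusted p = 0.825) and mitfa of 0.18 (SE 0.151, edgeR adjusted p = 0.539), all with overlapping groups. The tyr means were thus lower in mutants at both ages, without a call at either.

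**Figure D3:**
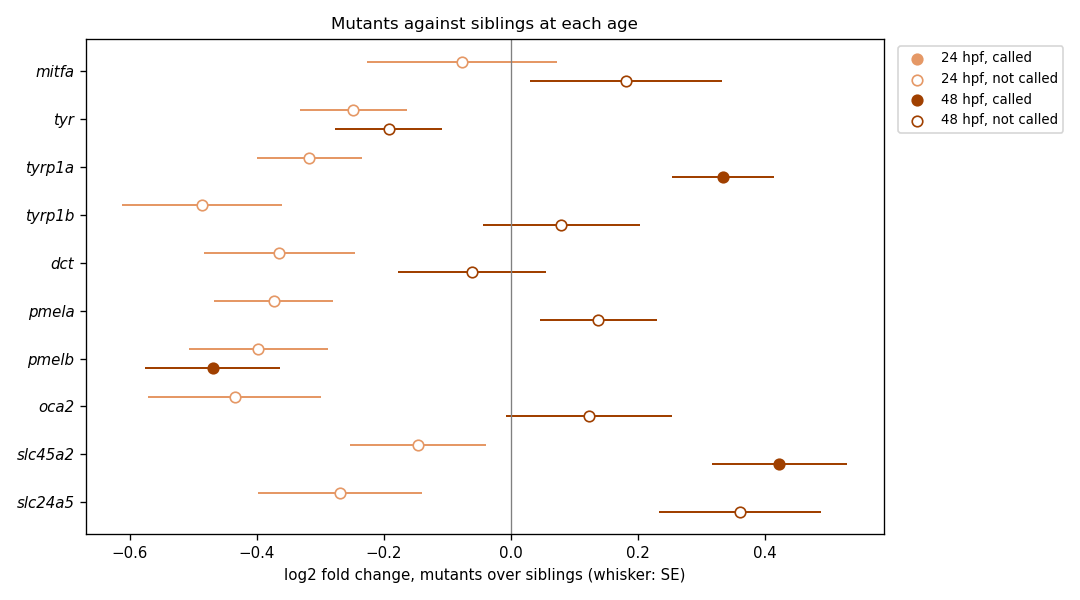
Log2 fold change of each melanin gene, mutants over siblings (horizontal axis), at 24 and at 48 hpf, with whiskers of 1 SE. Filled points were called. At 24 hpf all 10 points lie below 0, from -0.49 for tyrp1b to -0.08 for mitfa. At 48 hpf they run from -0.47 for pmelb to 0.42 for slc45a2.

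The balance between the fibril paralogs differed at 48 hpf. The ratio of pmelb to pmela counts within a library needs no scaling between libraries. It was 0.340, 0.280, 0.320 and 0.312 in sib48 and 0.219, 0.191, 0.203 and 0.210 in mut48, so that the lowest sibling library lay above the highest mutant library. At 24 hpf it was 0.229 ± 0.0143 in sib24 and 0.229 ± 0.0444 in mut24 (SD, n = 4). The ratio in mut48 was thus near that of 24 hpf, while in sib48 it was higher. The ratio of tyrp1a to tyrp1b was 0.373 ± 0.0363 in sib24 and 0.424 ± 0.0634 in mut24, and 0.179 ± 0.0275 in sib48 and 0.210 ± 0.00890 in mut48, with overlap between genotypes at both ages. These ratios were chosen after the values were seen and are given without a test. The sources used here do not say how reads that match both paralogs were assigned, which leaves the split between paralogs uncertain.

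**Figure D4:**
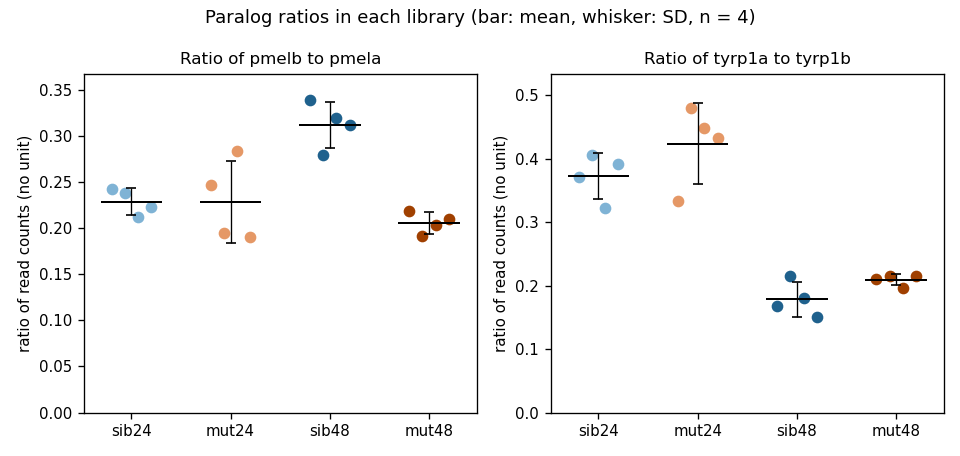
Ratio of read counts of pmelb to pmela and of tyrp1a to tyrp1b (vertical axes, from 0) in each library. Points are libraries, bars are means and whiskers are SD (n = 4). The pmelb to pmela ratio lies at 0.280 to 0.340 in sib48 and at 0.191 to 0.219 in mut48.

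Several melanin genes varied together among libraries of a group. In sib48, replicate 4 was the highest library of its group for 8 of the 10 genes. That library had the lowest TMM factor of its group (0.968, against 1.02 to 1.05). Among the related genes named below it was also the highest of its group for tfap2a, gch2, asip2b, xdh and otx2b. It was not the highest for lef1, myo5aa, rab32a, ap3b1a or slc16a8. In mut48, replicate 2 was the highest for 6 genes and replicate 4 the lowest for 7, and in mut24 replicate 3 was the lowest for 6. The TMM factor of mut48 replicate 4 was the highest of its group (1.08, against 1.03 to 1.05). The share of all tested genes that were highest or lowest in these libraries was not counted. The SD was 2.17% to 19.1% of the mean over the 10 genes and 4 groups, with a median of 10.2%. Over 16 libraries, the deviations of each gene from its group mean were compared with the mean deviation of the other 9 genes. Pearson's r was 0.82 for pmela and for tyrp1b, 0.65 for tyrp1a and 0.51 for dct, and between 0.29 and 0.38 for tyr, pmelb, oca2 and slc45a2. It was 0.06 for mitfa and 0.05 for slc24a5. Between single melanin genes r ran from -0.45 to 0.83 with a median of 0.23, and was above 0 in 35 of 45 pairs. All genes share the libraries and their scaling, so these values are descriptions.

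Related lists were read beside the shares of all tested genes called in edgeR, which were 0.391% higher and 0.440% lower at 24 hpf and 2.84% higher and 4.59% lower at 48 hpf. Of 38 tested genes of melanosome biogenesis and transport, 0 were called at 24 hpf in edgeR. An unadjusted p under 0.05 was found at that age for 7 of the 38, beside 13.7% of all tested genes. At 48 hpf 11 of the 38 had an unadjusted p under 0.05, beside 22.1% of all tested genes. At that age 4 were called higher and 0 lower, beside 7.43% of all tested genes called. The median log2 fold changes of the list were 0.03 and 0.07. At 48 hpf 23 of the 38 lay above 0 and 15 below, the latter including hps1 (-0.26) and bloc1s2 (-0.10), neither of them called. The list's 4 called genes encode parts of the machinery that delivers cargo to lysosome-related organelles, a shared role that follows from how the list was chosen. They were bloc1s6 of the BLOC-1 complex, which rose 1.66-fold (22.8 ± 2.03 CPM in sib48, 37.9 ± 3.26 in mut48, SD, n = 4, edgeR adjusted p = 0.000509), the melanosomal small GTPase gene rab32a (1.43-fold, edgeR adjusted p = 0.0140), hps4, part of the exchange factor of Rab32 (1.58-fold, edgeR adjusted p = 0.0144), and vps33a of the HOPS tethering complex (1.24-fold, edgeR adjusted p = 0.0353).

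Of 23 tested genes of melanophore specification and signalling, 0 were called at 24 hpf in edgeR, beside 0.831% of all tested genes. An unadjusted p under 0.05 was found at that age for 4 of the 23, beside 13.7% of all tested genes. At 48 hpf 10 of the 23 had an unadjusted p under 0.05, beside 22.1% of all tested genes. At that age 0 were called higher and 2 lower, a share near that of all tested genes (7.43% called). One was asip2b, of the agouti family of melanocortin antagonists, which fell 1.53-fold (30.2 ± 3.88 CPM in sib48, 19.8 ± 2.51 in mut48, SD, n = 4, edgeR adjusted p = 0.0214). The other was tfap2a, a neural crest and epidermal transcription factor gene, which fell 1.15-fold (edgeR adjusted p = 0.0465). The list's median log2 fold changes were -0.03 and 0.01.

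Genes of the other pigment cells, xanthophores and iridophores, went both ways. At 24 hpf 2 of 23 were lower and 0 higher, beside 0.440% and 0.391% of all tested genes. They were gch2 of pteridine synthesis, which fell 1.56-fold (edgeR adjusted p = 0.00414), and the transporter gene slc2a15a, which fell 1.48-fold (18.7 ± 1.08 CPM in sib24, 12.6 ± 1.17 in mut24, edgeR adjusted p = 0.00781). At 48 hpf 3 were lower and 2 higher, beside 4.59% and 2.84% of all tested genes. The lower ones were gch2 (1.28-fold, edgeR adjusted p = 0.0237), slc2a11b (1.27-fold, edgeR adjusted p = 0.0289) and slc2a15a (1.25-fold, edgeR adjusted p = 0.0312, named here after its value was seen). The higher ones were paics of purine synthesis (1.79-fold, edgeR adjusted p = 0.000600) and tfec, a transcription factor gene of the Mitf family (1.46-fold, edgeR adjusted p = 0.0282). The genotypes overlapped for slc2a15a and for tfec, which stood at 11.8, 7.91, 8.51 and 6.52 CPM in mut48 and 5.35 to 6.66 in sib48. Of these genes gch2 lies on the chromosome of lipf.

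Of 17 genes of the retinal pigment epithelium 1 was higher and 0 lower at each age, beside 0.831% of all tested genes called at 24 hpf and 7.43% at 48 hpf. It was slc16a8, a lactate transporter gene, which lies on the chromosome of lipf. It rose 2.61-fold at 24 hpf, with 5.56 ± 1.05 CPM in sib24 and 14.5 ± 0.931 in mut24 (edgeR adjusted p = 0.00288). At 48 hpf slc16a8 rose 2.95-fold, with 6.41 ± 1.81 CPM in sib48 and 18.9 ± 2.23 in mut48 (edgeR adjusted p = 6.60e-05). The list's median log2 fold change was 0.26 at 24 hpf and 0.05 at 48 hpf, beside -0.40 and -0.47 for pmelb. At 48 hpf 9 of the 17 lay above 0 and 8 below. The latter included lratb.2 (-1.27), rdh5 (-0.33, with no overlap between genotypes) and otx2b (-0.19), none of them called. The list's summed level was 215 to 242 CPM in sib48 and 223 to 251 CPM in mut48. Of this sum otx2b alone held 85.6 to 99.6 CPM in sib48 and 73.9 to 93.0 in mut48. Whether the amount of retinal pigment epithelium differed between genotypes was not tested.

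With age each of these lists held genes called in both directions, beside 34.1% of all tested genes higher and 29.2% lower in siblings. In siblings 15 of 38 melanosome genes were higher and 4 lower, led by myo5aa, the myosin that carries melanosomes (2.22-fold higher, edgeR adjusted p = 5.32e-09), and ap3b1a of the AP-3 adaptor (1.90-fold lower, edgeR adjusted p = 4.58e-07). Among specification and signalling genes 11 of 23 were higher and 8 lower, with asip2b 6.49-fold higher (edgeR adjusted p = 1.38e-10). Of the xanthophore and iridophore genes 15 of 23 were higher and 6 lower, with xdh of pteridine and purine metabolism 10.4-fold higher (edgeR adjusted p = 2.48e-11). Of the retinal pigment epithelium genes 8 of 17 were higher and 2 lower, with otx2b, an eye field and retinal pigment factor gene, 3.22-fold higher (edgeR adjusted p = 2.51e-11). Also named in siblings were lef1 (2.22-fold higher, edgeR adjusted p = 3.50e-10), slc2a15a (4.69-fold higher, 1.21e-12) and rdh5 (8.24-fold higher, 5.74e-08). The otx2a transcript of the retinal list went the other way, 2.24-fold lower in siblings (edgeR adjusted p = 1.30e-07) and 2.10-fold lower in mutants (3.37e-07). In mutants the counts of higher and lower genes were 16 and 2, 11 and 9, 16 and 4, and 8 and 3 in the same order of lists, beside 34.1% higher and 30.4% lower among all tested genes. The melanosome gene vps41 was 1.87-fold higher with age in mutants (edgeR adjusted p = 4.93e-08), and gch2 was 3.63-fold higher (edgeR adjusted p = 9.49e-12). In the interaction edgeR called 0 genes of any of these 4 lists, with 7, 5, 5 and 4 at an unadjusted p under 0.05.

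**Figure D5:**
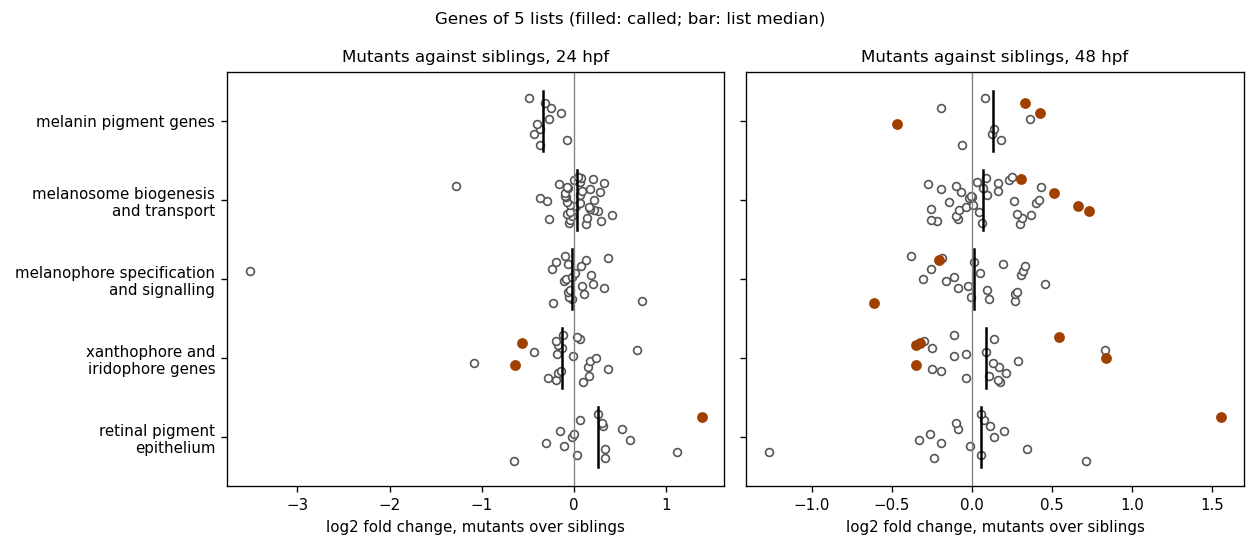
Log2 fold change of every tested gene of 5 lists, mutants over siblings (horizontal axes), at 24 hpf and at 48 hpf. Filled points were called and bars mark list medians. The melanin genes have a median of -0.34 at 24 hpf and 0.13 at 48 hpf.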

How the data were processed

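Per the labels, RNA was extracted with TRIzol. Per the submitters' processing notes, GRCz11 was the build, STAR 2.7.10b and featureCounts 2.0.6 were used, and FastQC 0.12.1 and Trim Galore 0.6.10 are listed too. The sources used here state no annotation, strand setting or handling of multi-mapping reads. The deposited table held whole-number read counts per gene, 1 column per library, which the authors had not normalised.

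From these counts, genes were kept by filterByExpr and scaled by TMM. All 16 libraries entered 1 quasi-likelihood fit (edgeR 4.0.16, R 4.3.3) with 1 mean per group, and F-tests were two-sided, with Benjamini-Hochberg adjustment over 24300 genes. SE is the size of the log2 fold change divided by the root of F. Counts of the 24300 kept genes were simulated, and 23945 of them passed the filter again. Of these, 67 genes were changed by 0.5 on the log2 scale, 67 by 1 and 66 by 2. Of those changed by 0.5, 26.9% were called in the 24 hpf contrast and 23.9% in the 48 hpf contrast. Of those changed by 1, 67.2% and 74.6% were called, and of those changed by 2, 92.4% and 90.9%. The changed genes were drawn at random from genes with a mean of at least 1 CPM, so these shares are not rates for the melanin genes. Log2 CPM used a prior count of 2. Of 43 melanosome genes listed, 39 matched the file. Scores per library were compared by exact permutation. Replicate libraries all differed by more than sampling noise.

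All 10 genes were named. Of each related list, called genes with the smallest p were named, up to 4 per genotype contrast and 2 per other contrast. The genes and lists were chosen with earlier results of these data known. Alternatives were other scalings and filters, a fit of the compared groups only, a replicate block, DESeq2 1.42.0, a yolk covariate and leaving out libraries.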

Additional observations from a re-analysis of the deposited data

Results flagged for a closer look

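In 3 of the 40 sets of 4 libraries (10 genes in 4 groups), 1 library stood apart from the others on the log2 CPM scale, and chance alone gives about 1 in 20. They were mitfa in sib48 replicate 3 (10.9 CPM, a gap of 0.907 of the group's range), tyrp1a in mut48 replicate 2 (49.3 CPM, 0.831) and pmela in sib48 replicate 4 (169 CPM, 0.926). The difference between genotypes in tyrp1a itself differed between ages, by 0.65 on the log2 scale (SE 0.116, edgeR adjusted p = 0.0135): all 4 mutant libraries were below all siblings at 24 hpf and above them at 48 hpf.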

How the results depend on the processing

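The number of melanin genes called at 24 hpf, 0 in the main test, was 6 with DESeq2, 2 with the yolk score as a covariate, and 0 to 2 when single libraries were left out (tyrp1b and dct without mut24 replicate 1, pmela without mut24 replicate 4). At 48 hpf it was 3 under each other setting and 1 to 3 without single libraries, with pmelb alone left without mut48 replicate 2. In the interaction it was 5 with DESeq2 and 1 to 2 without single libraries (pmela added without mut24 replicate 4, slc45a2 without mut48 replicate 1). For 48 against 24 hpf it was 7 to 8 in siblings and 9 in mutants throughout. The genes called over the whole transcriptome varied too. At 24 hpf, with single libraries left out, they ran from 22 higher and 40 lower without sib24 replicate 1 to 316 higher and 146 lower without sib24 replicate 3. Other settings reached further. They gave 6 higher and 17 lower without the 4 libraries low in yolk genes, and 378 higher and 453 lower with DESeq2. The signs of the 10 genes held in each contrast and alternative except for mitfa at 24 hpf (-0.08, and 0.032 without the 4 libraries low in yolk genes). Without those 4 libraries the age comparison in siblings called tyr lower (adjusted p = 0.0310) and no longer called slc24a5 (adjusted p = 0.253). The cause was not tested. The difference in yolk score at 24 hpf, -0.54, ran from -1.39 to 0.243 without single libraries.

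Same-numbered libraries deviated together by r over 0.1 in 2 of 24 pairs. Both were pairs of sib24 with mut24, replicate 3 (r 0.17) and replicate 4 (0.20), while replicates 1 and 2 gave -0.08 and -0.11. Libraries with different numbers were not compared, so whether the numbers pair the samples is not settled. With a replicate block 0 of the 10 melanin genes were called at 24 hpf, 3 at 48 hpf and 1 in the interaction. Of 24300 tested genes this fit called 86 higher and 87 lower at 24 hpf, and 526 higher and 802 lower at 48 hpf. In the interaction it called 55 higher and 42 lower.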

Other observations

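Among 19520 other genes with a mean of at least 1 CPM, those whose deviations from their group means followed the mean deviation of the 10 melanin genes most closely over 16 libraries were cpt1aa (Pearson's r 0.92), SYDE2 (0.87), LOC101884938 (0.83), echdc2 (0.81), tnxbb (0.81) and aldh6a1 (0.81). The median over all 19520 was 0.02, and as the highest of so many values these are a description only. The closest, cpt1aa, encodes a carnitine palmitoyltransferase that passes fatty acids into mitochondria. It did not follow the melanin genes between groups: sib24 and mut24 had means of 38.4 ± 0.770 and 38.6 ± 3.22 CPM, and sib48 and mut48 of 36.7 ± 1.90 and 34.0 ± 1.79 CPM (SD, n = 4). None of the 6 was in a list used here.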
